A study of Homo sapiens with 8 samples.

Results

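RNA levels of the colorectal cancer cell lines HCT116 and SW620 were compared after both had received the nanodrug AFZC, over all genes. The rule takes 4 of the 8 libraries of the series: 2 from SW620 and 2 from HCT116, each exposed to AFZC for 24 h. The other 4 libraries come from the same lines after 24 h of 5-fluorouracil (5-FU), again 2 per line. Per the labels, every line and agent pair was dosed at its own IC50, the dose that lowers the measured response to its midpoint, so doses may differ between the lines. No allele or genetic change is named for either line. The series title describes an aptamer-modified metal-organic framework that encapsulates 5-FU, with peroxidative cell death as its subject; the metal, the aptamer target and the meaning of the letters AFZC are not given there. Untreated cells were not analysed here, so a standing difference between the lines and a difference in their response to AFZC cannot be told apart within this comparison. The question it answers is which genes differ between these 2 lines while both are under the nanodrug.

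HCT116 is an established line from a colon carcinoma with defective mismatch repair, and SW620 is an established line from a lymph node metastasis of a colon adenocarcinoma. 5-FU is converted into nucleotides that block thymidylate synthase (TYMS) and enter RNA and DNA. The resulting DNA damage induces a group of arrest, repair and death genes, of which CDKN1A, an inhibitor of cyclin-dependent kinases, and MDM2, a ubiquitin ligase, are the best known. Peroxidative death follows when lipid peroxides outrun the enzymes that remove them, such as GPX4, which depends on cystine imported by SLC7A11.

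The 4 AFZC libraries held 31991561 to 36518758 counts each, and 26597 to 28340 genes had at least 1 count. Whether libraries with the same line and agent were grown as separate cultures is not given in the labels; p-values therefore reflect library-to-library spread, possibly only technical. The check of the labelled cell type used fixed markers: the epithelial genes EPCAM (264 to 481 CPM over the 4 libraries, where CPM is the TMM-scaled number of a gene's counts in every 1000000) and KRT8 (1643 to 3846 CPM) were high in both lines. The intestinal factor CDX2 was present in both, but the defining intestinal gene CDX1 had at most 8 counts in any AFZC library. CDH17, also on the fixed intestinal list, was at 1.09 and 0.416 CPM in HCT116 and 23.7 and 14.1 CPM in SW620. CDH1 and KRT19 of the epithelial list are given below, and KRT18, VIL1, GPA33 and LGALS4 are not reported here. Of 20 markers of blood, endothelial, stromal and neural cells, 12 had enough counts to be tested. Of these, 5 were higher and 4 lower in SW620, beside 25.1% and 24.2% of all genes tested. The blood markers PTPRC and CD3E had at most 2 counts per AFZC library. LUM, a stromal proteoglycan, had no counts in HCT116 and 43.2 and 20.9 CPM in SW620, and LYZ, a lysozyme of myeloid and Paneth cells, was at 40.4 and 15.7 CPM in SW620. Of the 4 lower markers, ITGAM was at 8.85 and 7.32 CPM in HCT116 and 0.310 and 0.335 CPM in SW620. The part of these markers in the results was not tested. In bulk RNA, fewer cells of a type and less RNA per cell cannot be told apart. Reads were not strand-specific, so reads of overlapping genes on opposite strands cannot be separated; among genes named here this touches TYMS with ENOSF1, PROX1 with PROX1-AS1, EVL with DEGS2, CBR1 with SETD4, SLC39A5 with ANKRD52, VLDLR with VLDLR-AS1, DUOX2 with DUOXA2, LGR5 with TSPAN8 and HOXC11 with HOTAIR.

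Of 21378 genes tested, 10540 (49.3%) differed between the lines under AFZC at an adjusted p under 0.05: 5376 (25.1%) were higher in SW620 and 5164 (24.2%) were lower. The difference was at least 2-fold for 7359 genes (34.4%), 3742 (17.5%) higher and 3617 (16.9%) lower, and 2167 of the called genes differed by at least 16-fold. The median log2 fold change over all genes tested was -0.01, and the median of its absolute size was 0.82. Between the lines the 2 libraries each did not overlap for 15907 genes (74.4%), 37.2% in each direction, a share to be read against the 49.3% that passed the test. Under 5-FU, with 4 other libraries, 11705 genes (54.8%) differed between the lines. Of the genes called under AFZC, 74.3% were called in the same direction under 5-FU, and of those called under 5-FU, 66.9% were called in the same direction under AFZC. Across all genes tested, which are not independent replicates, the 2 sets of log2 fold changes had a Pearson correlation of 0.85.

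**Figure D1:**
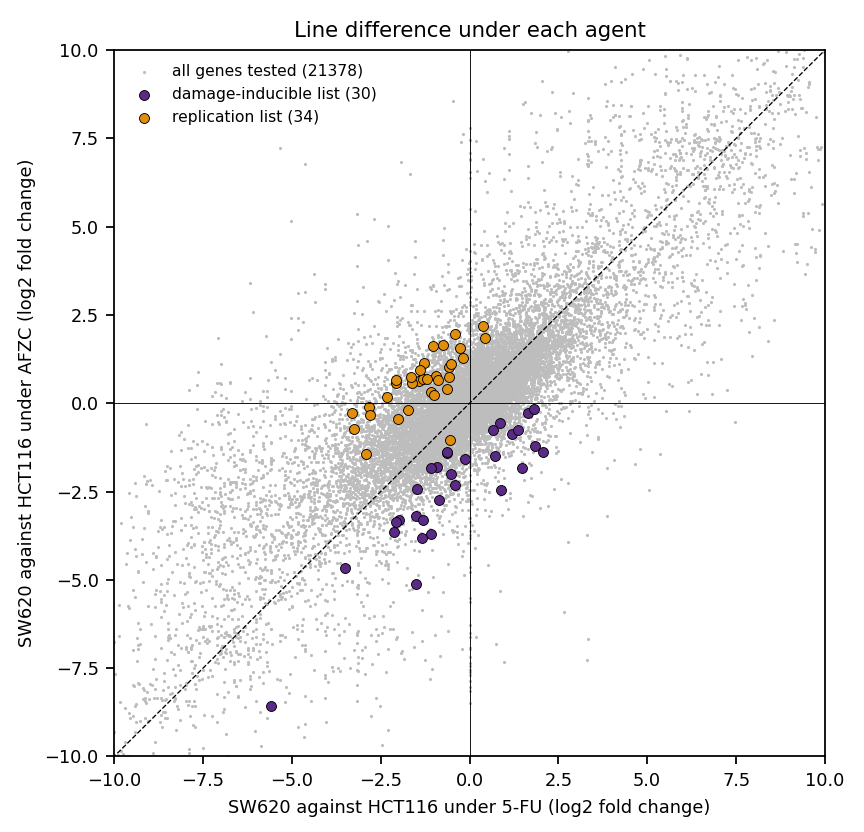
Line difference (SW620 against HCT116) of every gene tested under 5-FU (horizontal axis) and under AFZC (vertical axis), both as log2 fold changes; the dashed line marks equal values, and 368 genes lie outside the axes. Damage-inducible genes (purple) lie towards the lower right of the dashed line, 24 of 30 called different between the agents, and replication genes (orange) towards its upper left, 33 of 34 called. Over all genes, 9.78% were called different between the agents.

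Many genes were expressed in 1 line and near absent from the other. At most 3 counts pooled over both HCT116 libraries were found for 783 of the higher genes, 515 of them without any count, and at most 3 pooled counts in SW620 for 686 of the lower genes, 427 of them without any count. The most abundant of the first kind was TXNIP (chr1:145992435-145996600), which encodes a thioredoxin-binding protein that restrains glucose uptake. It was at 1839.6 and 2484 CPM in SW620 and had no count in either HCT116 library, so it was at least 53204-fold higher in SW620 against a floor of 3 counts over the group. PROX1, a homeobox factor of the crypt and lymphatic programme, was at 238 and 194 CPM in SW620 and absent from the HCT116 counts (at least 5313-fold). The guidance receptor ROBO1 was at 221 and 181 CPM in SW620, at least 4940.5-fold above HCT116. TOX3, an HMG-box protein, was at 127 and 144 CPM (at least 3327-fold), and the connexin GJB1 at 137 and 93.4 CPM (at least 2827-fold). TMEM47 was at 71.8 and 91.1 CPM (at least 2004-fold) and the WNT receptor FZD10 at 72.4 and 61.5 CPM (at least 1646-fold). All 7 of these had 0 counts in both HCT116 libraries. The calcium-binding protein CALB1 had 3 counts over both HCT116 libraries and was at 176 and 206 CPM in SW620, a pooled ratio of 4705-fold (95% exact interval 1609.7 to 22818). Floors and intervals cover counting error only.

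In the other direction, SLC1A3, a glutamate transporter, was at 122 and 171 CPM in HCT116 and had 2 counts over both SW620 libraries, 5207-fold (95% exact interval 1441 to 42998) lower. AMOTL1, an angiomotin of cell junctions, was at 150.4 and 120.3 CPM in HCT116 with 2 counts in SW620, 4842-fold (95% exact interval 1340.0 to 39987) lower. RAPGEF5, an activator of RAP GTPases, was at 62.6 and 54.95 CPM against 3 counts, 1401-fold (95% exact interval 479 to 6795) lower. The other 5 genes had no SW620 count at all. These were the zinc finger gene ZNF518B (82.6 and 95.98 CPM in HCT116, at least 2121-fold lower in SW620) and the protocadherin PCDH7 (60.96 and 105 CPM, at least 1957-fold). The cancer-testis antigen MAGEA3 was at 81.4 and 80.3 CPM in HCT116 (at least 1924-fold); it has near-identical copies, so its own share of the reads is uncertain. The KRAB zinc finger gene ZNF264 was at 75.1 and 66.8 CPM (at least 1689-fold) and the transcription factor MEF2C at 39.99 and 75.04 CPM (at least 1359-fold).

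**Figure D2:**
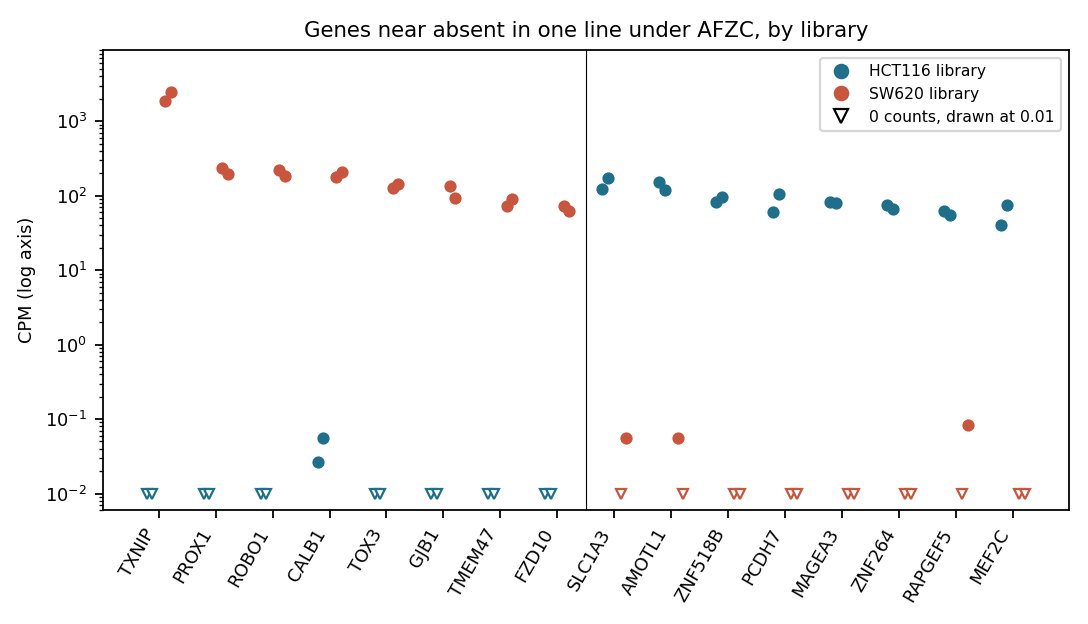
TMM-scaled CPM of the 16 genes near absent in 1 line, in each AFZC library (log axis); blue, HCT116; red, SW620; open triangles mark 0 counts, drawn at 0.01. TXNIP is the most abundant in SW620, at 1839.6 and 2484 CPM, with 0 counts in HCT116.

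Complete absence was rare among abundant genes. Of 4254 genes at a mean of 50 CPM or more in SW620 under both agents, 9 had no count in HCT116 under AFZC. The SW620 AFZC libraries held 229197 counts of these 9. Of 4014 genes at a mean of 50 CPM or more in HCT116 under both agents, 7 had no count in SW620 under AFZC, against 36085 counts in HCT116. Near absence under one agent did not always hold under the other. Of 150 genes at 5 CPM or more in HCT116 with at most 3 counts in SW620 under 5-FU, 86 (57.3%) had more than 3 counts in SW620 under AFZC, at a median of 0.161 CPM and at most 1.81 CPM. In the reverse reading, of 87 such genes near absent under AFZC, 11 (12.6%) had more than 3 counts under 5-FU. In HCT116 the same shares were 42 of 141 (29.8%) and 27 of 151 (17.9%). The SW620 libraries under 5-FU had the fewest genes detected of the series, 24744 and 24427, against 27591 and 26597 in SW620 under AFZC. Whether this bears on these shares was not tested.

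Near-absent genes lay in part beside each other. Trefoil factor genes TFF3, TFF2 and TFF1 and their neighbour TMPRSS3 (chr21:42311667-42396846) were all near absent in HCT116. Zinc finger genes made 5 of the 12 runs of 3 or more neighbouring tested genes near absent in HCT116, for example ZNF569, ZNF570, ZNF793 and ZNF540 (chr19:37411155-37614097). Of 75 tested ZNF genes on chromosome 19 from 52 Mb, 12 were higher and 26 lower in SW620. Of 357 other ZNF genes, 84 were higher and 104 lower, beside 27.3% each way of all protein-coding genes. How often zinc finger genes neighbour each other was not set beside the run count. In SW620, 10 runs were found, among them LCE1F, LCE1E, LCE1C, LCE1B and IVL of the epidermal differentiation cluster (chr1:152776372-152911886) and the MAGEA3, CSAG2 and MAGEA2B stretch of the X chromosome (chrX:152698752-152718607). These runs were chosen after their values were seen. CG dinucleotides were counted in the 250 bases before the start of each gene in the RefSeq promoter table (GRCh38.p14). It matched 82 of 119 called protein-coding genes near absent in HCT116 and at 5 CPM or more in SW620, and 62 of 75 of the reverse kind. Their medians were 15 and 15.5 CG per promoter, against 20 for the 11793 tested protein-coding genes that the table holds. The median was 22 for the 8251 of these at 5 CPM or more in both lines and 11 for all 27195 promoters of the table. The promoters of TXNIP (chr1:145996580-145996829, strand -, the first of 2 starts in the table, with 18 CG) and of ZNF264 (chr19:57191250-57191499, strand +, 23 CG) are shown as the most abundant gene missing from HCT116 and as an example of the zinc finger genes missing from SW620. Capitals mark each CG.
TXNIP: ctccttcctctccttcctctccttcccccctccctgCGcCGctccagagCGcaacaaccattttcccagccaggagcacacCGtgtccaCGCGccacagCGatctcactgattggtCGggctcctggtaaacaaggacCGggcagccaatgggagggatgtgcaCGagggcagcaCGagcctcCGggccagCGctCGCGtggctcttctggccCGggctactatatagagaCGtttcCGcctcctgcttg
ZNF264: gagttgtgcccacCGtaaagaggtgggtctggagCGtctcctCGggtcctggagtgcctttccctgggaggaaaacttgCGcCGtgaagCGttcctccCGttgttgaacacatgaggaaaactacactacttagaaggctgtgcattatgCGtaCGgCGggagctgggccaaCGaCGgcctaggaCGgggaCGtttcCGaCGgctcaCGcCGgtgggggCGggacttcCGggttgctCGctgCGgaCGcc

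Among genes at 5 CPM or more in both lines, the 10 with the largest excess in SW620 were led by LCP1, an actin-bundling protein of blood and tumour cells. LCP1 was at 5.17 and 7.05 CPM in HCT116 and at 613 and 504 CPM in SW620, a log2 fold change of 6.52 ± 0.23, adjusted p = 7.0e-10. Here and below ± is the standard error, values in brackets are log2 fold changes of SW620 against HCT116, HCT116 levels precede those of SW620, and a replicate named without its agent is an AFZC library. The WNT antagonist and WNT target NKD1 was at 49.6 and 53.5 against 1989 and 1294 CPM (log2 fold change 4.99 ± 0.30, adjusted p = 4.0e-08). Only called genes whose AFZC libraries did not overlap between the lines could enter this list and its counterpart below, so that separation is not a result. HNF4A, a nuclear receptor that drives gut and liver genes, was at 10.3 and 12.2 CPM in HCT116 and 222 and 185 CPM in SW620 (4.18 ± 0.22, adjusted p = 1.3e-08). NRP2, a co-receptor for semaphorins and VEGF, was at 10.5 and 6.19 against 119 and 166 CPM (4.09 ± 0.31, adjusted p = 1.1e-06). The others were NAV2, PTPRN2, SERPINF1, LMO7, HSPA2 and MFNG, with log2 fold changes of 5.50, 5.09, 4.48, 4.13, 4.10 and 4.09. HSPA2 was at 11.7 and 5.44 against 206 and 87.7 CPM. NAV2 is a cytoskeletal protein, SERPINF1 a secreted serpin that restrains vessel growth, HSPA2 an HSP70-family chaperone and MFNG a fringe enzyme that modifies Notch. HSPA2 had a log2 difference under AFZC of 4.75 without HCT116 replicate 1 and 3.36 without SW620 replicate 1. Values with 1 library left out are given for some of the genes where they moved by over 1.5 times, so a gene without them was not always stable.

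Among the same genes, the largest deficit in SW620 was that of KITLG, the ligand of the KIT receptor, at 637 and 1143 CPM in HCT116 and 9.71 and 8.04 CPM in SW620 (-6.65 ± 0.36, adjusted p = 3.5e-08). CD44, a hyaluronan receptor and stem cell marker, was at 763 and 731 against 24.9 and 36.9 CPM (-4.59 ± 0.31, adjusted p = 2.2e-07). The HCT116 libraries agreed closely for CD44. ANXA1, an annexin that dampens inflammation, was at 352 and 276 against 9.60 and 14.6 CPM (-4.70 ± 0.27, adjusted p = 5.9e-08). ALDH1A3, which makes retinoic acid, was at 469 and 527 against 29.9 and 22.2 CPM (-4.26 ± 0.20, adjusted p = 4.3e-09). ISYNA1, RAB3B, TP53INP1, PDP1, MAL2 and ADM completed the list, at -5.01, -4.84, -4.67, -4.64, -4.55 and -4.08. In SW620 the 2 libraries were at 18.5 and 7.76 CPM for ISYNA1, 10.05 and 4.55 CPM for RAB3B, 15.9 and 5.16 CPM for TP53INP1 and 8.30 and 16.9 CPM for MAL2. Of these, ISYNA1 makes inositol phosphate, PDP1 reactivates pyruvate dehydrogenase, MAL2 serves apical transport and ADM is a vasodilator peptide induced by hypoxia. ISYNA1 had a log2 difference under AFZC of -5.76 without SW620 replicate 1. RAB3B had a log2 difference under AFZC of -5.51 without SW620 replicate 1. TP53INP1 had a log2 difference under AFZC of -5.70 without SW620 replicate 1 and -4.08 without SW620 replicate 2. MAL2 had a log2 difference under AFZC of -5.15 without SW620 replicate 2.

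The DNA damage-inducible genes were lower in SW620 almost throughout. Of 30 list members, 27 were lower, none was higher, and the list's median log2 fold change was -1.93, against -0.01 and 24.2% lower over all genes tested. CDKN1A (chr6:36676460-36687339) was at 2030.3 and 1633 CPM in HCT116 and 157 and 123 CPM in SW620 (-3.71 ± 0.23, adjusted p = 5.2e-08). MDM2 (chr12:68808176-68850686) was at 420.5 and 898 CPM in HCT116 and 43.3 and 50.7 CPM in SW620 (-3.81 ± 0.31, adjusted p = 2.5e-06). The 2 HCT116 libraries differed for MDM2, but the lower of them was still above both SW620 libraries. TP53I3, a quinone oxidoreductase, was at 151 and 131 against 4.33 and 3.71 CPM (-5.13 ± 0.22, adjusted p = 2.9e-09). SPATA18, a protein of mitochondrial quality control, had 101 counts in HCT116 and none in SW620, so it was at least 32.6-fold lower. The 3 members that did not pass the test were EDA2R, AEN and SUSD6, at -1.37, -0.29 and -0.15; EDA2R passed it without SW620 replicate 2 (adjusted p = 0.016). These 3 were named after their values were seen. MDM2 had a log2 difference under AFZC of -3.16 without HCT116 replicate 2.

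Under 5-FU the same list was split, with 10 members higher and 17 lower in SW620 and a median of -0.63, where 26.5% and 28.2% of all genes were higher and lower. With library sizes in place of TMM factors, 35.6% of all 5-FU calls were higher, against 48.5%. The line difference under AFZC lay below that under 5-FU for 24 of the 30 members at an adjusted p under 0.05, and above it for none; over all genes, 4.14% lay below and 5.65% above. For CDKN1A the 5-FU libraries were at 189 and 175 CPM in HCT116 and 71.2 and 99.9 CPM in SW620, a line difference of -1.09, and the 2 line differences differed by -2.62 ± 0.30, adjusted p = 0.0003. For MDM2 that difference was -2.47 ± 0.41, adjusted p = 0.0045, and for TP53I3 it was -3.62 ± 0.29, adjusted p = 7.0e-05. The HCT116 AFZC libraries were the ones that stood high for CDKN1A and MDM2, as the plot of these genes by library shows. With a single library left out, 25 to 28 of the 30 members were lower under AFZC and 17 to 24 lay below their 5-FU difference. For MDM2 the difference between agents was -1.82 without HCT116 replicate 2.

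**Figure D3:**
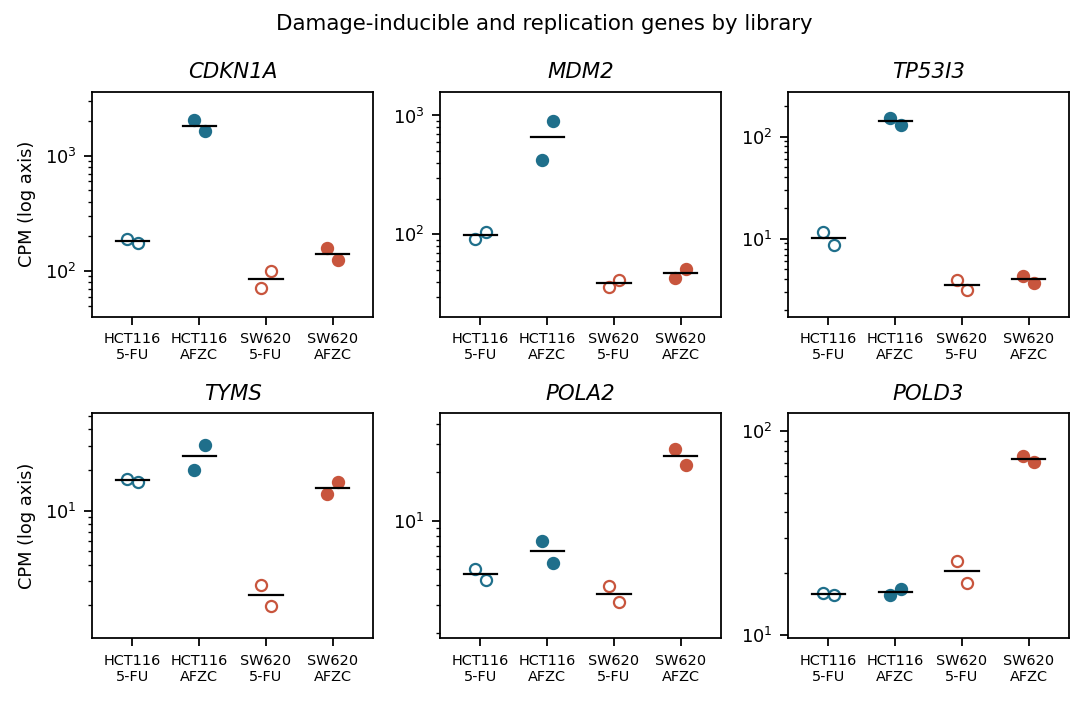
TMM-scaled CPM (log axis) of 3 damage-inducible genes and 3 replication or nucleotide genes in all 8 libraries; open symbols, 5-FU; filled symbols, AFZC; bars, group means of 2 libraries. CDKN1A, MDM2 and TP53I3 are highest in HCT116 under AFZC, and POLA2 and POLD3 in SW620 under AFZC.

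Genes of DNA replication and their E2F regulators stood the other way. Of 34 members tested, 23 were higher in SW620 and 3 lower, with a median of 0.66, beside 25.1% and 24.2% of all genes. POLD3, a subunit of DNA polymerase delta, was at 15.6 and 16.8 CPM in HCT116 and 75.6 and 70.7 CPM in SW620 (2.17 ± 0.18, adjusted p = 6.5e-07). POLA2, a subunit of the polymerase that makes primers, was at 7.50 and 5.46 against 27.9 and 22.4 CPM (1.95 ± 0.26, adjusted p = 5.2e-05). For both genes the SW620 libraries under AFZC exceeded all 6 other libraries of the series. The 3 lower members were CCNE1, the cyclin of the start of S phase (-1.44), E2F7, a repressor among the E2F factors (-1.03), and the licensing factor CDT1 (-0.43), named after its value was seen. CDT1 lost its call without HCT116 replicate 2 (adjusted p = 0.092) or SW620 replicate 2 (adjusted p = 0.15). Under 5-FU, 1 member was higher and 29 were lower in SW620, with a median of -1.23, beside 26.5% and 28.2% of all genes. The line difference under AFZC exceeded that under 5-FU for 33 of the 34 members, by a median of 1.93; with any 1 library left out this held for 31 or 32. POLA2 differed by 2.36 ± 0.38, adjusted p = 0.0025 and POLD3 by 1.80 ± 0.25, adjusted p = 0.00098.

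ORC6, a subunit of the origin recognition complex, and the activator E2F1 are added for their promoters, after their values were seen. ORC6 was at 28.6 and 28.9 against 92.9 and 113 CPM (1.84 ± 0.16, adjusted p = 9.1e-07) and E2F1 at 32.9 and 29.7 against 98.9 and 98.1 CPM (1.66 ± 0.17, adjusted p = 4.0e-06). The E2F-like motif TTTNNCGC, searched on both strands in the 250 bases before the start, was present in 13 of the 27 replication promoters that the RefSeq table holds (48.15%) and in 5.946% of all 27195 promoters. It was present for CDT1 (-0.43), GINS2 (-0.28) and POLE (-0.18) and missing for CDC45 (1.62) and GINS3 (1.15). The 3 promoters shown are those of the largest log2 fold changes among the 27. Whether the motif goes with the line difference was not tested. The motif itself holds a CG. The 27 promoters held 15 to 42 CG each, against a median of 11 over all promoters, so the 2 shares were not matched for CG. Below are 3 of the 13, those of POLA2 (chr11:65261712-65261961, strand +), ORC6 (chr16:46689409-46689658, strand +) and E2F1 (chr20:33686386-33686635, strand -); capitals mark the matches, with overlapping matches run together, which are descriptions of sequence and not mapped sites.
POLA2: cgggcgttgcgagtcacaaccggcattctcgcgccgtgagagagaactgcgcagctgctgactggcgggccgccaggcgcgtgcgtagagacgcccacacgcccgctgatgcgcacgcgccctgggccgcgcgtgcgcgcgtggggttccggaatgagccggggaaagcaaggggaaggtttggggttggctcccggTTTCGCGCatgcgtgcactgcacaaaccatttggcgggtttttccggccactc
ORC6: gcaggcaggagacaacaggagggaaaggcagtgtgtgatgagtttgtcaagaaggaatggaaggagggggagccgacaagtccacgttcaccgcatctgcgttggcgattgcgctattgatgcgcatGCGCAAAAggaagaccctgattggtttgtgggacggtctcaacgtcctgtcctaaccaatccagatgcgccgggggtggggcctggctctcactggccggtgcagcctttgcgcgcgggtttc
E2F1: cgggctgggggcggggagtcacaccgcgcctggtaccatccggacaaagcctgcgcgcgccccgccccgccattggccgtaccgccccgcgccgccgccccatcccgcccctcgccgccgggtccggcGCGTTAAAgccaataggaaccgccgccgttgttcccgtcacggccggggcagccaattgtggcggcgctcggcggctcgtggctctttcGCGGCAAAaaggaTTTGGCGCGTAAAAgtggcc

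Of 32 mitosis genes, 8 were higher and 1 lower in SW620 (median 0.20), where 25.1% and 24.2% of all genes were. These counts rested on single libraries. Without HCT116 replicate 2 under AFZC, 20 were higher and none lower. Without HCT116 replicate 1, 6 were lower, and without SW620 replicate 2, none. TOP2A, the topoisomerase of dividing cells, was at 168 and 293 against 754 and 494 CPM (1.44 ± 0.27, adjusted p = 0.00087).

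Genes of fluoropyrimidine handling differed in both directions, 8 of 31 higher and 10 lower in SW620, beside 25.1% and 24.2% of all genes. TYMS, the enzyme blocked by 5-FU metabolites, was at 20.1 and 30.6 CPM in HCT116 and 13.3 and 16.3 CPM in SW620 (-0.78 ± 0.25, adjusted p = 0.022). This call was lost without HCT116 replicate 2 (-0.44, adjusted p = 0.24) and without SW620 replicate 1 (adjusted p = 0.11). Under 5-FU the TYMS difference was larger, at -2.82, with 2.82 and 1.96 CPM in SW620, and the 2 line differences differed by 2.04 ± 0.37, adjusted p = 0.0052. DPYD, which breaks 5-FU down, was at 2.46 and 1.30 against 17.96 and 10.2 CPM (2.89 ± 0.37, adjusted p = 3.4e-05). GGH, which trims folate polyglutamates, was at 52.3 and 51.9 against 414 and 282 CPM (2.74 ± 0.19, adjusted p = 1.6e-07). TYMP, which converts 5-FU to its deoxynucleoside, was lower in SW620, at 23.7 and 18.8 against 1.91 and 0.865 CPM (-3.94 ± 0.34, adjusted p = 9.4e-07). In mismatch and base excision repair, 8 of 26 genes were higher and 8 lower. MGMT, which removes alkyl groups from guanine, was lower in SW620 (12.7 and 9.57 against 1.75 and 3.29 CPM, -2.14 ± 0.43, adjusted p = 0.0014). Without HCT116 replicate 2, 5 of the repair genes were higher. TYMP had a log2 difference under AFZC of -4.61 without SW620 replicate 1.

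Of 30 lipid peroxide defence genes, 10 were higher and 10 lower in SW620, where 25.1% and 24.2% of all genes were, and the median of 0.03 was close to the -0.01 over all genes. GPX4 itself was at 191 and 156 CPM in HCT116 and 188 and 189 CPM in SW620, and its log2 fold change did not pass the test (0.12 ± 0.17, adjusted p = 0.58). The gut glutathione peroxidase GPX2 was at 0.265 and 0.444 CPM in HCT116 and 290.3 and 256 CPM in SW620 (9.58 ± 0.36, adjusted p = 1.2e-09). GPX3, the secreted form, was at 1.03 and 2.03 against 17.5 and 16.7 CPM (3.48 ± 0.41, adjusted p = 1.6e-05). GPX2 was thus under 1 CPM in HCT116, while GPX3 was low there and, under 5-FU, in both lines (1.44 and 2.84 CPM in HCT116, 1.72 and 2.39 CPM in SW620; difference of the line differences 3.54 ± 0.56, adjusted p = 0.0025). GPX8, of the endoplasmic reticulum, was lower in SW620 (28.9 and 31.5 against 3.15 and 6.67 CPM, -2.62 ± 0.29, adjusted p = 1.0e-05), but less so than under 5-FU (difference 3.45 ± 0.46, adjusted p = 0.00081). PROM2, a prominin linked to ferritin export, was lower too, at 61.4 and 69.02 against 1.10 and 0.614 CPM (-6.25 ± 0.30, adjusted p = 5.7e-09). The cystine transporter SLC7A11 was at 10.8 and 19.002 CPM in HCT116 and 43.7 and 118 CPM in SW620 (2.44 ± 0.46, adjusted p = 0.003); the SW620 libraries differed more than 2-fold from each other, but both lay above HCT116. GPX8 had a log2 difference under AFZC of -3.25 without SW620 replicate 2. For GPX8 the difference between agents was 2.83 without SW620 replicate 2. SLC7A11 had a log2 difference under AFZC of 1.56 without SW620 replicate 2.

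On the side of lipid peroxidation and iron uptake, 6 of 27 genes were higher and 8 lower, beside 25.1% and 24.2% of all genes. ACSL4, which loads polyunsaturated fatty acids for membrane lipids, was at 98.6 and 114 against 245 and 171 CPM (0.97 ± 0.18, adjusted p = 0.0007). CHAC1, which degrades glutathione, was at 9.43 and 6.16 against 20.4 and 53.1 CPM (2.24 ± 0.39, adjusted p = 0.00083). PTGS2, the inducible cyclooxygenase, had 443 counts in HCT116 and none in SW620 (at least 143-fold lower), and the peroxide-producing oxidase DUOX2 was at 8.004 and 4.19 against 0.394 and 0.112 CPM, 24.3-fold (95% exact interval 15.2 to 41.5) lower. Among 29 NRF2 targets and aldo-keto reductases, 9 were higher and 12 lower. HMOX1, the heme oxygenase, was at 36.1 and 27.5 CPM in HCT116 and 12.1 and 8.82 CPM in SW620 (-1.61 ± 0.25, adjusted p = 0.00015). CBR1, a carbonyl reductase, had no count in HCT116 under either agent and was at 30.2 and 25.8 CPM in SW620 (at least 688-fold). AKR1C2 was higher in SW620 (126-fold, 95% exact interval 71.8 to 244), while AKR1B10 and the hydroxylase CYP4F11 were lower, AKR1B10 by 247-fold (95% exact interval 84.2 to 1200.3) and CYP4F11 by 288-fold (95% exact interval 172 to 527). AKR1C2 has close paralogs, so its reads may be shared with them. CHAC1 had a log2 difference under AFZC of 1.39 without SW620 replicate 2.

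Metallothioneins, small proteins that hold zinc and copper, were unequal between the lines. Of 11 listed, 7 were tested. Of these, 4 were higher and 3 lower in SW620, beside 25.1% and 24.2% of all genes. MT2A was at 678 and 442 CPM in HCT116 and 101 and 219.6 CPM in SW620 (-1.80 ± 0.49, adjusted p = 0.017), and MT1E at 59.2 and 147 against 1.55 and 12.1 CPM (-3.92 ± 1.07, adjusted p = 0.029). MT1G and MT1A had no count in HCT116 and were at 4.17 and 37.2 CPM and 7.07 and 9.10 CPM in SW620, at least 510.0-fold and 199-fold higher. SW620 replicate 2 held more of MT2A, MT1E and MT1G than replicate 1, and it alone had counts of MT1H (27) and MT1M (86). Calls of this family were not firm. MT2A lost its call without HCT116 replicate 1 (adjusted p = 0.11) or SW620 replicate 1 (adjusted p = 0.11), and MT1E without HCT116 replicate 2 (adjusted p = 0.09) or SW620 replicate 1 (adjusted p = 0.06). MT1G lost it without either HCT116 AFZC library (adjusted p = 0.067 and 0.062) or either SW620 5-FU library (adjusted p = 0.065 and 0.063). Without SW620 replicate 1 none was lower, 1 was lower without either HCT116 replicate, and 2 were higher without HCT116 replicate 2. MT2A had a log2 difference under AFZC of -2.47 without SW620 replicate 2. MT1E had a log2 difference under AFZC of -3.11 without HCT116 replicate 2, -3.09 without SW620 replicate 1 and -6.05 without SW620 replicate 2. The genes are near-identical copies, so the split of reads among them is uncertain. The metal response core TGCNCNC, searched on both strands, was found in all 5 metallothionein promoters of the RefSeq table and in 48.45% of all 27195. These 5 were those of MT2A, MT1X, MT1B, MT1H and MT4. Only MT2A and MT1X (-1.05) of these were tested, both lower in SW620, so no member called higher is covered. The promoter of MT2A (chr16:56608334-56608583, strand +), the most abundant member, is shown with its 7 matches in capitals.
MT2A: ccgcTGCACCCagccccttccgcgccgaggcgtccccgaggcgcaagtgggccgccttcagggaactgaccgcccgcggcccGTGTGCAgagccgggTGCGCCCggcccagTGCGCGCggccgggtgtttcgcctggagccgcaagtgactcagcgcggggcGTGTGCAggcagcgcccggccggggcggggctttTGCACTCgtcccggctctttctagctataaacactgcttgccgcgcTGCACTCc

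Of 21 genes for zinc transporters and the zinc sensor MTF1, 3 were higher and 9 lower in SW620 (5 higher without SW620 replicate 1). Over all genes, 25.1% were higher and 24.2% lower. SLC30A1, which exports zinc and is induced by it, was at 114 and 109 CPM in HCT116 and 81.3 and 62.4 CPM in SW620 (-0.63 ± 0.19, adjusted p = 0.015). Its call was lost without HCT116 replicate 1 (adjusted p = 0.051) and without SW620 replicate 2 (adjusted p = 0.11). Under 5-FU it was higher in SW620, at 38.2 and 51.1 against 88.8 and 117 CPM (1.21, adjusted p = 0.00019), and the 2 line differences differed by -1.84 ± 0.27, adjusted p = 0.0016. The importer SLC39A6 was at 202 and 188 against 33.4 and 44.8 CPM (-2.32 ± 0.17, adjusted p = 2.2e-07), and the importer SLC39A5 was higher in SW620 (158-fold, 95% exact interval 85.7 to 330.1).

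Of 28 intestinal differentiation genes, 17 were higher and 5 lower (median 3.77), and of 24 WNT target and crypt stem cell genes, 16 were higher and 3 lower (median 1.83), where 25.1% and 24.2% of all genes were. TFF3, a goblet cell peptide, had no count in HCT116 and was at 69.5 and 52.1 CPM in SW620 (at least 1494-fold), beside TFF2 (at least 244-fold) and TFF1 (at least 69.3-fold). AGR2, a chaperone of mucins, was at 21.1 and 109 CPM in SW620 and without counts in HCT116 (at least 1603-fold); its second SW620 library was the higher one. The stem cell genes LGR5 and ASCL2, named after their values were seen, had 4 and 6 counts in HCT116 and were at 16.1 and 18.3 and 43.6 and 44.9 CPM in SW620, ratios of 317-fold (95% exact interval 124 to 1166) and 544-fold (95% exact interval 249.8 to 1484). APCDD1, a WNT antagonist and target, was at least 876-fold higher. DKK1, a secreted WNT inhibitor, was lower in SW620 (377 and 318 against 5.94 and 3.01 CPM, -6.28 ± 0.56, adjusted p = 4.4e-05), and so was DPP4, a brush border peptidase (12.3 and 12.4 against 0.647 and 0.865 CPM, -4.02 ± 0.31, adjusted p = 3.8e-07). Without HCT116 replicate 1, 5 WNT genes were lower. CDX2 was at 20.96 and 23.4 CPM in HCT116 and 48.3 and 36.2 CPM in SW620 (0.93 ± 0.18, adjusted p = 0.00093).

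Of 22 intestinal transcription factors, 13 were higher and 6 lower in SW620, where 25.1% and 24.2% of all genes were. SOX2, a factor of foregut and stem cells, was higher (91.5-fold, 95% exact interval 59.7 to 148), and so was the gut homeobox gene ISX (88.2-fold, 95% exact interval 46.2 to 194). HOX genes, which mark position along the body, were higher in SW620 for 18 of 33 and lower for 2 (1 without HCT116 replicate 1), with a median of 1.09. HOXC12 and HOXC11 led them, at 131-fold (95% exact interval 59.96 to 358) and 34.5-fold (95% exact interval 23.4 to 53.1). Both lie in the HOXC cluster of chromosome 12.

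Of 31 epithelial adhesion genes, 12 were higher and 10 lower in SW620 (median -0.06), and of 22 mesenchymal genes, 10 were higher and 3 lower (median 0.95; 5 lower without HCT116 replicate 2). Over all genes 25.1% were higher and 24.2% lower. CDH1, the epithelial cadherin, was at 243 and 177 CPM in HCT116 and 603 and 825 CPM in SW620 (1.77 ± 0.22, adjusted p = 2.4e-05). VIM, the intermediate filament of mesenchymal cells, had 16 counts in HCT116 and was at 129 and 149 CPM in SW620 (9.30 ± 0.35, adjusted p = 1.2e-09). SW620 thus held more of both markers. The VIM difference exceeded that under 5-FU by 2.70 ± 0.48, adjusted p = 0.0048. TNC, a matrix glycoprotein, was at 0.212 and 0.139 against 159 and 209 CPM, 1045-fold (95% exact interval 611 to 1963) higher. The related factors TWIST2 and TWIST1 were opposite: TWIST2 had counts in SW620 only (at least 82.4-fold higher) and TWIST1 in HCT116 only (at least 54.8-fold lower). CAV1, the coat protein of caveolae, was at 383 and 429 against 53.2 and 75.1 CPM (-2.66 ± 0.19, adjusted p = 2.0e-07). CLDN1, a tight junction claudin, was at 3.15 and 1.36 against 164 and 207 CPM (6.35 ± 0.33, adjusted p = 4.2e-08). CLDN1 had a log2 difference under AFZC of 7.09 without HCT116 replicate 1. For VIM the difference between agents was 2.08 without HCT116 5-FU replicate 2.

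Keratins are the intermediate filaments of epithelia. Under AFZC, 7 of 18 were higher and 3 lower in SW620 (1 lower without HCT116 replicate 1), and under 5-FU 11 were higher and 1 lower; the line difference under AFZC lay below that under 5-FU for 8 and above it for 1 (2 without SW620 replicate 2). The shares over all genes were 25.1% higher and 24.2% lower with AFZC and 26.5% and 28.2% with 5-FU, and 4.14% lay below and 5.65% above. KRT19 was at 2510.2 and 1495 CPM in HCT116 and 969 and 988 CPM in SW620 under AFZC (-1.03 ± 0.23, adjusted p = 0.0027), and at 1116 and 898 and 2611 and 2775 CPM under 5-FU (1.42, adjusted p = 0.00024). Its difference of line differences was -2.45 ± 0.33, adjusted p = 0.00094. KRT7 was lower in SW620 under AFZC (-1.38 ± 0.41, adjusted p = 0.023) and higher under 5-FU (1.78, adjusted p = 0.0076). The AFZC call of KRT7 was lost without HCT116 replicate 1 (adjusted p = 0.10, -0.87) or SW620 replicate 1 (adjusted p = 0.092), and KRT7 overlaps the keratin gene KRT86.

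The integrated stress response, in which ATF4 induces amino acid synthesis and transport, was represented by 28 genes, of which 21 were higher and 3 lower in SW620 (median 1.04), beside 25.1% and 24.2% of all genes. VLDLR, a lipoprotein receptor, was 103-fold (95% exact interval 57.2 to 207) higher, and the hormone gene FGF21 had no count in HCT116 and 0.281 and 2.71 CPM in SW620 (at least 36.9-fold). NUPR1, a stress-induced chromatin protein, was lower (12.1-fold, 95% exact interval 7.66 to 20.1), and the amino acid transporter SLC7A5 was at 512 and 498 against 122 and 219.7 CPM (-1.56 ± 0.23, adjusted p = 0.0001). Under 5-FU 23 members were higher and 2 lower, with a median of 2.05, beside 26.5% and 28.2% of all genes. With 1 library left out, 17 to 22 members were higher under AFZC.

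All 13 mitochondrially encoded mRNAs were lower in SW620, with a median log2 fold change of -1.67. Over all genes, 25.1% were higher and 24.2% lower. MT-CYB, of the cytochrome bc complex, was at 5389.6 and 5774 CPM in HCT116 and 674 and 624 CPM in SW620 (-3.10 ± 0.24, adjusted p = 3.4e-07), and MT-ND6, of the NADH dehydrogenase, at 2286 and 1694 against 631 and 429 CPM (-1.91 ± 0.22, adjusted p = 1.6e-05). Mitochondrial counts made 12.4% and 10.9% of the HCT116 AFZC libraries and 6.39% and 5.18% of those of SW620. Whether these shares bear on the other results was not tested. Under 5-FU 9 of the 13 were lower, where 28.2% of all genes were. Glycolysis and hypoxia genes were lower for 15 of 28 and higher for 1 (median -0.51); the mitophagy gene BNIP3 was at 60.96 and 45.8 against 6.92 and 3.26 CPM (-3.39 ± 0.31, adjusted p = 2.7e-06), and the glucose transporter SLC2A3, the single higher one, at 35.5 and 11.8 against 113 and 116 CPM (2.28 ± 0.44, adjusted p = 0.0033). That count was 2 or 3 without HCT116 replicate 1 or either SW620 AFZC replicate. Sterol and fatty acid synthesis genes were lower for 13 of 27 and higher for 1 (none without HCT116 replicate 1, 2 without SW620 replicate 2). FASN, the fatty acid synthase, was at 1437 and 2273 CPM in HCT116 and 337 and 337 CPM in SW620 (-2.46 ± 0.23, adjusted p = 1.8e-06), and the elongase ELOVL6 at 69.6 and 101 against 23.6 and 25.8 CPM (-1.79 ± 0.19, adjusted p = 5.1e-06). Heat shock genes were lower for 12 of 24 and higher for 5 (3 without HCT116 replicate 1). BNIP3 had a log2 difference under AFZC of -4.02 without SW620 replicate 1. SLC2A3 had a log2 difference under AFZC of 3.28 without HCT116 replicate 1 and 1.69 without HCT116 replicate 2.

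Of 27 NF-kB, chemokine and cytokine genes, 14 were higher and 4 lower in SW620 (2 lower without replicate 1 of either line), beside 25.1% and 24.2% of all genes. The list's median was 1.31 and lay between 0.62 and 2.30 with 1 library left out, lowest without HCT116 replicate 2 and highest without HCT116 replicate 1. CCL20, a chemokine for lymphocytes, had 6 counts in HCT116 and was at 156 and 211 CPM in SW620 (2259.8-fold, 95% exact interval 1038 to 6159), and the growth factor gene CSF3 was at least 111-fold higher. IL18, an epithelial cytokine, was lower, at 75.2 and 59.3 against 7.46 and 9.01 CPM (-3.03 ± 0.20, adjusted p = 1.0e-07). Of 30 interferon-stimulated genes, 7 were higher and 8 lower (5 lower without SW620 replicate 2). The antiviral synthetase OAS2 was 36.3-fold (95% exact interval 17.4 to 91.3) higher and the ISG15 ligase HERC5 64.9-fold (95% exact interval 47.9 to 90.2) lower. Of 28 antigen presentation genes, 9 were higher and 8 lower; the class II genes HLA-DQB1 and HLA-DRB1 differed in opposite directions, 121-fold (95% exact interval 77.1 to 201) higher and 28.9-fold (95% exact interval 15.004 to 63.9) lower in SW620. Class II genes have close paralogs, so their shares of the reads are uncertain.

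Among growth factor receptors, 8 of 26 were higher and 12 lower, where 25.1% and 24.2% of all genes were. ERBB3 was at 43.5 and 47.4 CPM in HCT116 and 279 and 274 CPM in SW620 (2.60 ± 0.16, adjusted p = 4.6e-08), and FGFR2 at 50.2 and 41.7 against 0.760 and 0.112 CPM, 106-fold (95% exact interval 74.5 to 156) lower. The EGFR ligands EREG and AREG were lower in SW620, EREG at 307 and 433 against 23.9 and 60.7 CPM (-3.13 ± 0.41, adjusted p = 0.00025) and AREG at 879 and 411 against 76.6 and 144 CPM (-2.55 ± 0.41, adjusted p = 0.00096). Integrin and matrix genes were higher for 13 of 29 and lower for 6, among them ITGB6, 70.9-fold (95% exact interval 52.3 to 98.6) higher, and ITGA3, lower, at 838 and 596 against 85.3 and 118 CPM (-2.82 ± 0.22, adjusted p = 4.4e-07). In the BCL2 and caspase list, 6 of 26 were higher and 10 lower (3 higher without HCT116 replicate 2 or SW620 replicate 1), and the death inducer PMAIP1 was at 200.4 and 123 against 33.1 and 61.5 CPM (-1.77 ± 0.32, adjusted p = 0.0013). EREG had a log2 difference under AFZC of -3.95 without SW620 replicate 2. AREG had a log2 difference under AFZC of -1.90 without HCT116 replicate 1.

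**Figure D4:**
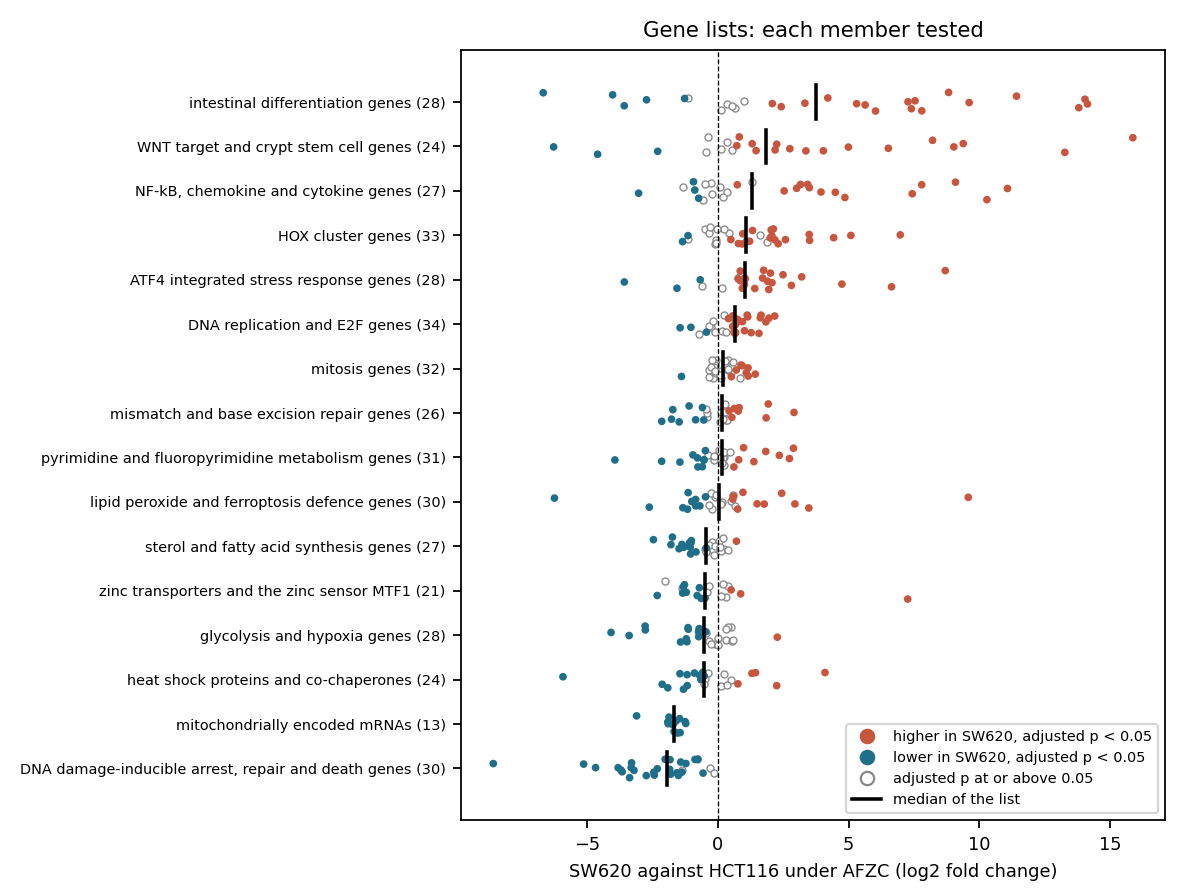
Log2 fold change (SW620 against HCT116 under AFZC) of every tested member of 16 gene lists, 1 point per gene; filled points passed the test, black bars are list medians, the dashed line is the median of all genes tested, and numbers in brackets count the members tested. Of the lists drawn, damage-inducible genes have the lowest median (-1.93) and intestinal differentiation genes the highest (3.77).

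For the remaining lists only counts are given, to be read beside 25.1% higher and 24.2% lower over all genes. Phase II enzymes and efflux pumps had 6 of 24 higher and 7 lower, endocytosis and lysosome genes 10 of 31 in each direction, and AP-1 and ERK output genes 11 of 30 higher and 6 lower. Of 45 cytosolic ribosomal protein genes, 6 were higher and 1 lower (3 lower without SW620 replicate 2). Of 15 tested histone genes, 1 was higher and 5 lower, and of 10 tested cancer-testis antigens, 3 were higher and 6 lower.

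Line differences were not spread evenly over the chromosomes. Among 15126 protein-coding genes tested, 27.3% were higher and 27.3% lower in SW620. On chromosome 18, 58.6% of 191 genes were lower (median log2 fold change -0.79), on chromosome 8, 47.2% of 481 (median -0.52), and on chromosome 4, 41.0% of 532 (median -0.39). On chromosome 13, 51.2% of 246 genes were higher (median 0.76), on the X chromosome 52.8% of 515 (median 0.65), on chromosome 11, 43.4% of 892 (median 0.45), and on chromosome 20, 43.0% of 412 (median 0.42). Under 5-FU these medians were -0.71, -0.61 and -0.59 for chromosomes 18, 8 and 4, and 0.57, 0.65, 0.42 and 0.49 for 13, X, 11 and 20. In windows of 10 Mb with at least 20 genes, the lowest median was -1.66, on chromosome 4 from 120 Mb (19 of 27 genes lower, none higher), and 65 of 89 genes were lower on chromosome 16 from 80 Mb. The highest were 1.44 on chromosome 13 from 70 Mb and 1.26 from 110 Mb, where 27 of 32 genes were higher and none lower. Neighbouring genes are not independent, and no copy number was measured here.

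**Figure D5:**
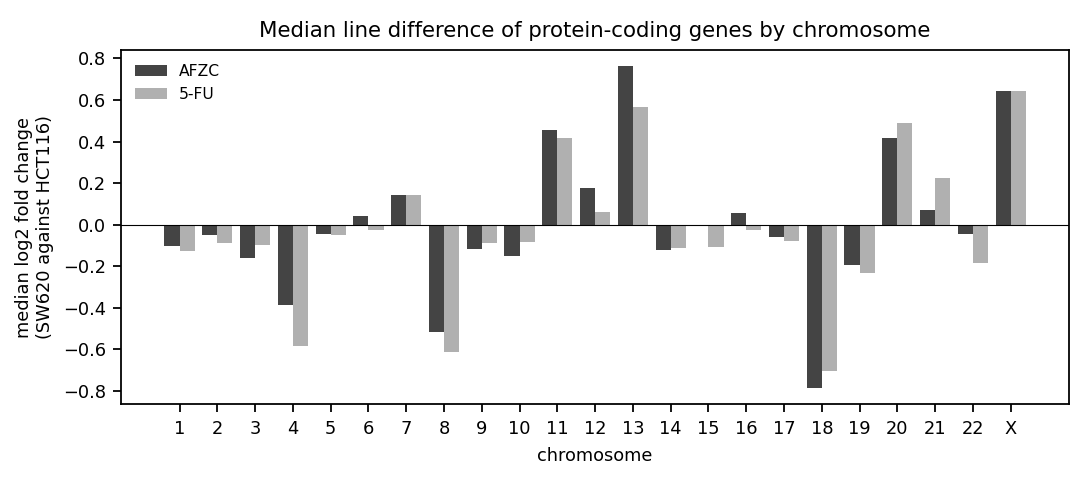
Median log2 fold change (SW620 against HCT116) of protein-coding genes on each chromosome under AFZC (dark bars) and under 5-FU (light bars). Chromosomes 18, 8 and 4 lie lowest and 13 and X highest under both agents.

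The line difference itself depended on the agent for 2091 genes (9.78%): it lay above the 5-FU difference for 1207 (5.65%) and below it for 884 (4.14%). Of these, 231 were called in opposite directions under the 2 agents, 367 were called under AFZC alone and 727 under 5-FU alone. Another 640 had the same direction with a smaller difference under AFZC, 124 the same direction with a larger one, and 2 were called under neither. The 6 genes with the largest positive difference had no count in either SW620 library under 5-FU, were low in SW620 under AFZC and were expressed in HCT116 under both agents. The SW620 libraries under 5-FU had the fewest genes detected of the series (24744 and 24427), and the part of this in the pattern was not tested. CD40, a receptor of the TNF family, was at 25.1 and 21.2 CPM in HCT116 and 2.90 and 0.725 CPM in SW620 under AFZC (-3.67 ± 0.49, adjusted p = 0.00026), and at 32.7 and 29.2 CPM in HCT116 under 5-FU. RET, a receptor kinase, was at 29.5 and 18.8 against 0.647 and 0.251 CPM under AFZC, and HLA-DRA, a class II chain, at 12.1 and 15.3 against 1.38 and 0.391 CPM. DPYSL5, OLFML2B and EVL had the same pattern, with 1.27 and 0.642, 0.647 and 0.195 and 0.563 and 0.223 CPM in SW620 under AFZC. In SW620 all 6 were higher in replicate 1 than in replicate 2. CD40 had a log2 difference under AFZC of -4.98 without SW620 replicate 1 and -2.99 without SW620 replicate 2.

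Of the 6 with the largest negative difference, 4 had no count in HCT116 under 5-FU. CBS, which makes cystathionine, was at 1.09 and 0.777 CPM in HCT116 and 23.03 and 27.2 CPM in SW620 under AFZC (4.74 ± 0.28, adjusted p = 7.6e-08), and at 30.4 and 29.998 CPM in SW620 under 5-FU; its near-identical copy CBSL makes its share of reads uncertain. NKX2-5, a homeobox gene, was at 0.742 and 0.361 against 26.4 and 28.7 CPM under AFZC, KIAA1755 at 0.371 and 0.277 against 6.28 and 2.48 CPM, and HS3ST6 at 3.07 and 0.915 against 10.2 and 3.26 CPM (adjusted p = 0.073, but 0.019 without HCT116 replicate 1 and 0.025 without SW620 replicate 2). KRT17, a keratin of stressed epithelium, was at 16.7 and 6.16 against 72.7 and 71.1 CPM under AFZC (2.65 ± 0.46, adjusted p = 0.0019) and at 0.0865 and 0.0562 against 63.04 and 121 CPM under 5-FU. KRT17 had a log2 difference under AFZC of 3.55 without HCT116 replicate 1. SYT8, a synaptotagmin, was lower in SW620 under AFZC (9.67 and 6.32 against 1.41 and 1.51 CPM, -2.45 ± 0.40, adjusted p = 0.00026) and higher under 5-FU (0.0576 and 0.0562 against 2.62 and 1.39 CPM, 5.05, adjusted p = 1.5e-05). With library sizes in place of TMM factors, the median of this difference over all genes moved from 0.04 to 0.39, and 2455 genes lay above and 430 below. Counts also moved with single libraries: without HCT116 5-FU replicate 1 they were 459 and 264, without its replicate 2 538 and 394, and without SW620 5-FU replicate 2 599 and 332. Without HCT116 AFZC replicate 1, 532 lay below, and without SW620 5-FU replicate 1, 558. With library sizes, 33 of the 34 replication genes lay above and 21 of the 30 damage-inducible genes below.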

How the data were processed

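RNA from 8 libraries, 2 for each pair of line and agent, was poly(A) selected, made into libraries without strand and sequenced, per the labels' protocols. The authors deposited 1 table of raw read counts per gene symbol. Per the submitters' processing notes the build was GRCh38 and the tools included HISAT2, STAR, featureCounts, DESeq2 and edgeR, with no role or version stated; the treatment of multi-mapping reads and of mates is not given in the sources used here. Genes with 2 counts were 1.68 to 1.84 times as frequent as genes with 1, so counts may not be independent molecules, and floors and intervals cover counting error only. Of 57169 rows, 57142 matched a GENCODE v29 symbol. The 27 symbols turned into dates were left as they stood and were not named.

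Genes passing edgeR's filterByExpr (minimum count 10) were scaled by TMM and fitted with edgeR 4.0.16 (R 4.3.3) by quasi-likelihood, with 4 group means over 8 libraries, which leaves 4 residual degrees of freedom. Contrasts were the line difference under AFZC, that under 5-FU and their difference, with Benjamini-Hochberg adjustment over all 21378 genes and a threshold of 0.05. The scripts were checked on simulated data. A gene without counts in a line is given against a floor of 3 counts over its 2 libraries, and a gene with few counts as a pooled ratio with a 95% exact binomial interval.

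Members, lists and rules were chosen with earlier results of these data known. Named genes are the 8 most abundant called near-absent genes in each direction (at most 3 pooled counts), the 10 largest differences in each direction among called genes at 5 CPM or more in both lines whose AFZC libraries did not overlap between the lines, up to 2 called members per list and direction, the 6 largest called differences between agents in each direction, and a fixed set: CDKN1A, MDM2, TYMS, GPX4, SLC7A11, ACSL4, HMOX1, MT2A, SLC30A1, CDX2, CDH1 and VIM. LGR5, ASCL2, TFF1, TFF2, E2F1, ORC6, CDT1, EDA2R, AEN, SUSD6 and genes of the neighbouring runs lie outside that rule and were chosen after their values were seen. Promoters are 250 bases before RefSeq starts (GRCh38.p14). Alternatives were DESeq2 1.42.0, median-of-ratios and library-size scaling, no low-count filter, a replicate block, the 4 libraries of 1 agent alone, a 2-fold minimum, and each library left out in turn. Where that leaves 1 library in a group, it is assumed to vary like the others.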

Additional observations from a re-analysis of the deposited data

Results flagged for a closer look

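This section covers 139 of the genes named in the report, and others, such as GINS2, POLE, CDC45 and GINS3, were left out of it. At an adjusted p under 0.05 in edgeR, 9.78% of all genes passed the test of the difference between agents itself. Of the 139 genes, 49 passed it, so their line difference under AFZC differed from that under 5-FU. For 12 of them, CD40, DPYSL5, HLA-DRA, OLFML2B, RET, EVL, HS3ST6, CBS, KRT17, SYT8, KIAA1755 and NKX2-5, this follows from their choice, since they were named for the largest differences between agents, and the share among named genes is not a result. Each value below is the log2 line difference (SW620 against HCT116) under AFZC minus that under 5-FU, with its adjusted p in brackets. Values above 0 were found for CD40 9.39 (0.0071), DPYSL5 8.40 (0.00065), HLA-DRA 7.77 (0.0079), OLFML2B 7.52 (0.0063), RET 7.31 (0.0062), EVL 7.17 (0.0046), GPX3 3.54 (0.0025), GPX8 3.45 (0.00081), MGMT 3.03 (0.015), CALB1 2.96 (0.035), KITLG 2.71 (0.0027), VIM 2.70 (0.0048), DPP4 2.53 (0.009), E2F1 2.41 (0.00011), POLA2 2.36 (0.0025), CD44 2.20 (0.0051), TYMS 2.04 (0.0052), POLD3 1.80 (0.00098), CDT1 1.58 (0.0008), CCNE1 1.47 (0.043), IL18 1.47 (0.0061), ORC6 1.39 (0.0022), ADM 1.23 (0.01) and PDP1 1.13 (0.017). Values below 0 were found for MFNG -0.92 (0.03), NAV2 -1.36 (0.02), NKD1 -1.36 (0.032), HNF4A -1.46 (0.007), LMO7 -1.49 (0.0018), LCP1 -1.52 (0.0052), ALDH1A3 -1.63 (0.0017), SLC7A5 -1.83 (0.004), SLC30A1 -1.84 (0.0016), AEN -1.94 (0.00052), SUSD6 -1.98 (0.00018), KRT19 -2.45 (0.00094), MDM2 -2.47 (0.0045), CDKN1A -2.62 (0.0003), CLDN1 -2.78 (0.0056), KRT7 -3.16 (0.015), NRP2 -3.40 (0.00098), EDA2R -3.44 (0.038), TP53I3 -3.62 (7.0e-05), NKX2-5 -6.55 (0.0051), KIAA1755 -6.83 (0.015), SYT8 -7.50 (0.00011), KRT17 -7.62 (0.0035), CBS -8.29 (0.00027) and HS3ST6 -9.12 (0.029). The calls of 14 of these genes were lost when a single library was left out. The highest adjusted p reached, with the difference in that fit and the library left out, was 0.095 for MGMT (2.52, without HCT116 5-FU replicate 1), 0.38 for CALB1 (1.63, without HCT116 5-FU replicate 2), 0.052 for DPP4 (2.38, without HCT116 5-FU replicate 1), 0.17 for CCNE1 (1.40, without HCT116 5-FU replicate 1), 0.052 for IL18 (1.28, without HCT116 5-FU replicate 1), 0.06 for ADM (1.20, without HCT116 5-FU replicate 1), 0.077 for PDP1 (1.15, without SW620 5-FU replicate 2), 0.12 for MFNG (-0.91, without HCT116 5-FU replicate 1), 0.12 for NAV2 (-1.07, without HCT116 5-FU replicate 1), 0.16 for NKD1 (-1.11, without HCT116 5-FU replicate 1), 0.051 for HNF4A (-1.19, without HCT116 5-FU replicate 1), 0.16 for EDA2R (-3.27, without HCT116 5-FU replicate 1), 0.085 for KIAA1755 (-6.83, without HCT116 5-FU replicate 1) and 0.085 for HS3ST6 (-9.12, without HCT116 5-FU replicate 1). The other genes kept their calls in each of the 8 fits without a library. Values of genes without counts in a group depend on the prior count of the fit and are not bounds.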

How the results depend on the processing

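Under AFZC, 3742 to 5632 genes were higher and 3617 to 5206 lower in SW620 over all alternatives, the lowest counts with the 2-fold minimum, and DESeq2 called 5240 and 4955. Leaving out 1 library gave 4530 to 5182 higher and 4327 to 5102 lower. The difference of the line differences moved most. Against 1207 genes above and 884 below, library sizes alone gave 2455 and 430 (85.1% above, against 57.7%), and leaving out 1 library gave 459 to 1488 above and 264 to 1151 below. Without the low-count filter, over all 36816 genes then tested, 1848 lay above and 1280 below. Library sizes alone also shifted the 5-FU calls to 4267 higher and 7714 lower (35.6% higher, against 48.5%), with a median of -0.34 over all genes, whereas the AFZC calls were 5632 and 4830. Lower WNT genes numbered 3, and 5 without HCT116 AFZC replicate 1 (range 3 to 5 over single libraries). Replicate numbers do not show which libraries belong together: deviations of same-numbered AFZC libraries correlated at 0.10 between the lines. A replicate block gave 5204 higher and 4984 lower genes under AFZC, and 1064 above and 767 below for the difference between agents. Of the 139 named genes that were followed, 139 kept their AFZC call or its absence under DESeq2 and under the block. With library sizes alone 138 did. Without the filter 135 did, where MT2A, MT1E and MT1G lost theirs (adjusted p = 0.15, 0.10 and 0.20) and HS3ST6 gained one. CDT1 lost its call with library sizes alone (adjusted p = 0.054) and with the 4 AFZC libraries alone (adjusted p = 0.071). None of these results reversed. With 2 libraries in each group the spread is estimated over all 4 groups, and genes near the low-count minimum have wide errors.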
